A study of Mus musculus with 10 samples.

Results

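The acute response of the mouse liver to a single dose of carbon tetrachloride (CCl4) was described in the 5 livers that carried the non-targeting control guide (NTC), 3 from mice given CCl4 (NTC-CCl4) and 2 from mice given the olive oil vehicle (NTC-Veh). They were chosen by their guide and treatment labels from the 10 livers of the series, and the other 5 carried a guide against Bap1 (sgBap1), 3 with CCl4 and 2 with vehicle. All mice were Cas9 Lox-Stop-Lox females of 16 to 20 weeks, in which Cas9 is made only after Cre removes a stop cassette. All were injected by tail vein with 1000000000000 particles of AAV8-U6-sgRNA-TBG-Cre, a virus that brings the guide together with a Cre recombinase under the hepatocyte promoter TBG, so that the control livers also held Cre, a guide and Cas9-positive hepatocytes. After 10 days the mice received CCl4, diluted 1:9 in olive oil, or olive oil alone by intraperitoneal injection at 10 µL/g, and the right lobe was taken for RNA 48 h later. The comparison addresses what the toxic injury alone does to liver transcripts at this time. The labels do not say in words that each library came from a separate mouse, so p-values measure the spread between these libraries.

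CCl4 is a classic liver poison that becomes harmful only after cytochrome P450 enzymes, chiefly CYP2E1, convert it to a reactive radical. Those enzymes are concentrated in the pericentral hepatocytes, which surround the central vein and also hold glutamine synthetase and much of bile acid synthesis, whereas periportal hepatocytes carry out most of the urea cycle and gluconeogenesis. Death of pericentral hepatocytes is known to be followed by entry of monocytes and other leukocytes, clearance of debris, activation of stellate cells, which lay down matrix, and proliferation of the remaining hepatocytes. In bulk tissue, fewer cells of a type and less RNA per cell cannot be told apart, and this holds for every gene given here.

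CCl4 was followed by changed levels of many expressed genes. Of 17015 tested genes, 9178 passed an adjusted p of 0.05 in edgeR's quasi-likelihood test, which was 53.9%, with 4659 higher (27.4%) and 4519 lower (26.6%) in NTC-CCl4. The livers of the groups did not overlap for 9157 of the called genes, against 71.7% of all tested genes. The median fold change was 2.31 among called higher genes and 1.78 among called lower genes. An absolute log2 fold change over 1 was reached by 2687 called genes that rose and 1847 that fell, and one over 4 by 339 and 95. The genes called lower took 66.3% of all counts in vehicle and 44.9% after CCl4, and those called higher took 7.79% and 19.9%. These sets were defined by their direction, and the share of tested genes not called also went from 25.9% to 35.3% of the raw counts. In a principal component analysis of the 5 livers the first component held 81.5% of the variance, with the vehicle livers at -97.0 and -102 and the CCl4 livers at 64.6, 59.7 and 74.2.

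**Figure D1:**
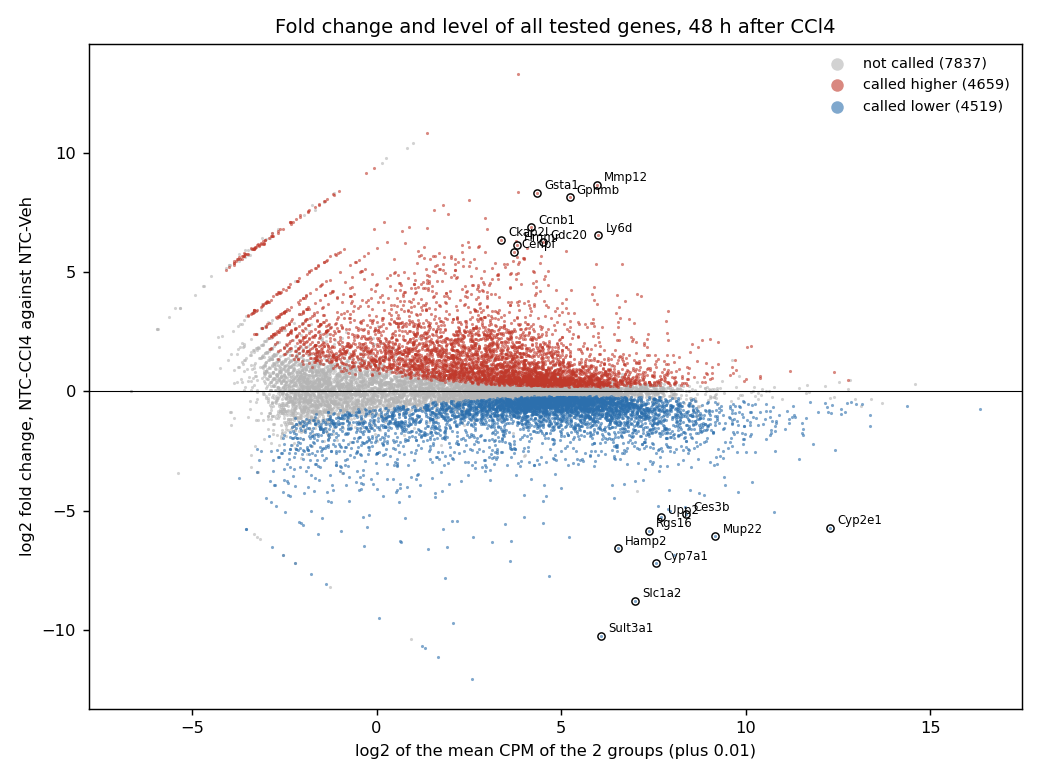
Each point is 1 of the 17015 tested genes, with the log2 of the mean CPM (counts per library scaled to 1000000) of both groups on the x axis and the log2 fold change of NTC-CCl4 against NTC-Veh on the y axis. The 4659 genes called higher are red and the 4519 called lower are blue, and the circled genes are those named in the text among the 12 with the largest changes in each direction of well-counted genes, from Mmp12 at the top to Sult3a1 at the bottom.

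Levels are given in CPM on libraries scaled by the trimmed mean of M values (TMM), and each gene is listed first with its vehicle livers in the order of replicates 1 and 2 and then its CCl4 livers in the order of replicates 1, 2 and 3. Fold changes are log2 values, with their standard error (SE) after ± where only 1 error is given, and a gene is said to rise, fall or be called only where its adjusted p in edgeR's test was under 0.05. The libraries held 33311289 to 47287125 estimated counts over the tested genes, and 3 counts, the floor used for detection, corresponded to 0.0564 to 0.0831 CPM. Scaling by library size alone moved the median log2 fold change of all tested genes from 0.0271 to 0.502 and the share of calls that were higher from 50.8% to 80.5%, so all changes are relative to the TMM scale. Vehicle livers correlated at 0.982 (Pearson, log2 CPM, across genes) and CCl4 livers at 0.984 to 0.986, against 0.902 to 0.921 between groups. The hepatocyte markers Alb, Apoa1, Ttr and Hnf4a were present in all 5 livers, the labelled tissue. In NTC-Veh replicate 2 the mesothelial gene Upk3b stood at 5.35 CPM, against 0.109 CPM in replicate 1, and the part of such tissue in other differences between the vehicle livers was not tested.

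The gene lists spanned a wide range. At the top stood mitosis, with 65 of 67 tested genes higher, and markers of recruited monocytes and macrophages, with 37 of 42. At the bottom by median log2 fold change stood the major urinary proteins, with 15 of 18 lower, and the urea cycle and amino acid breakdown, with 44 of 47. The pericentral, cytochrome P450, growth hormone and bile acid lists followed. Each count below is read against the shares of all tested genes, 27.4% higher and 26.6% lower, and the median of a list against the median of all tested genes, 0.0271. Many named genes were picked from called genes without overlap between the groups. For these, remarks on a lack of overlap restate that choice and are no further support.

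**Figure D2:**
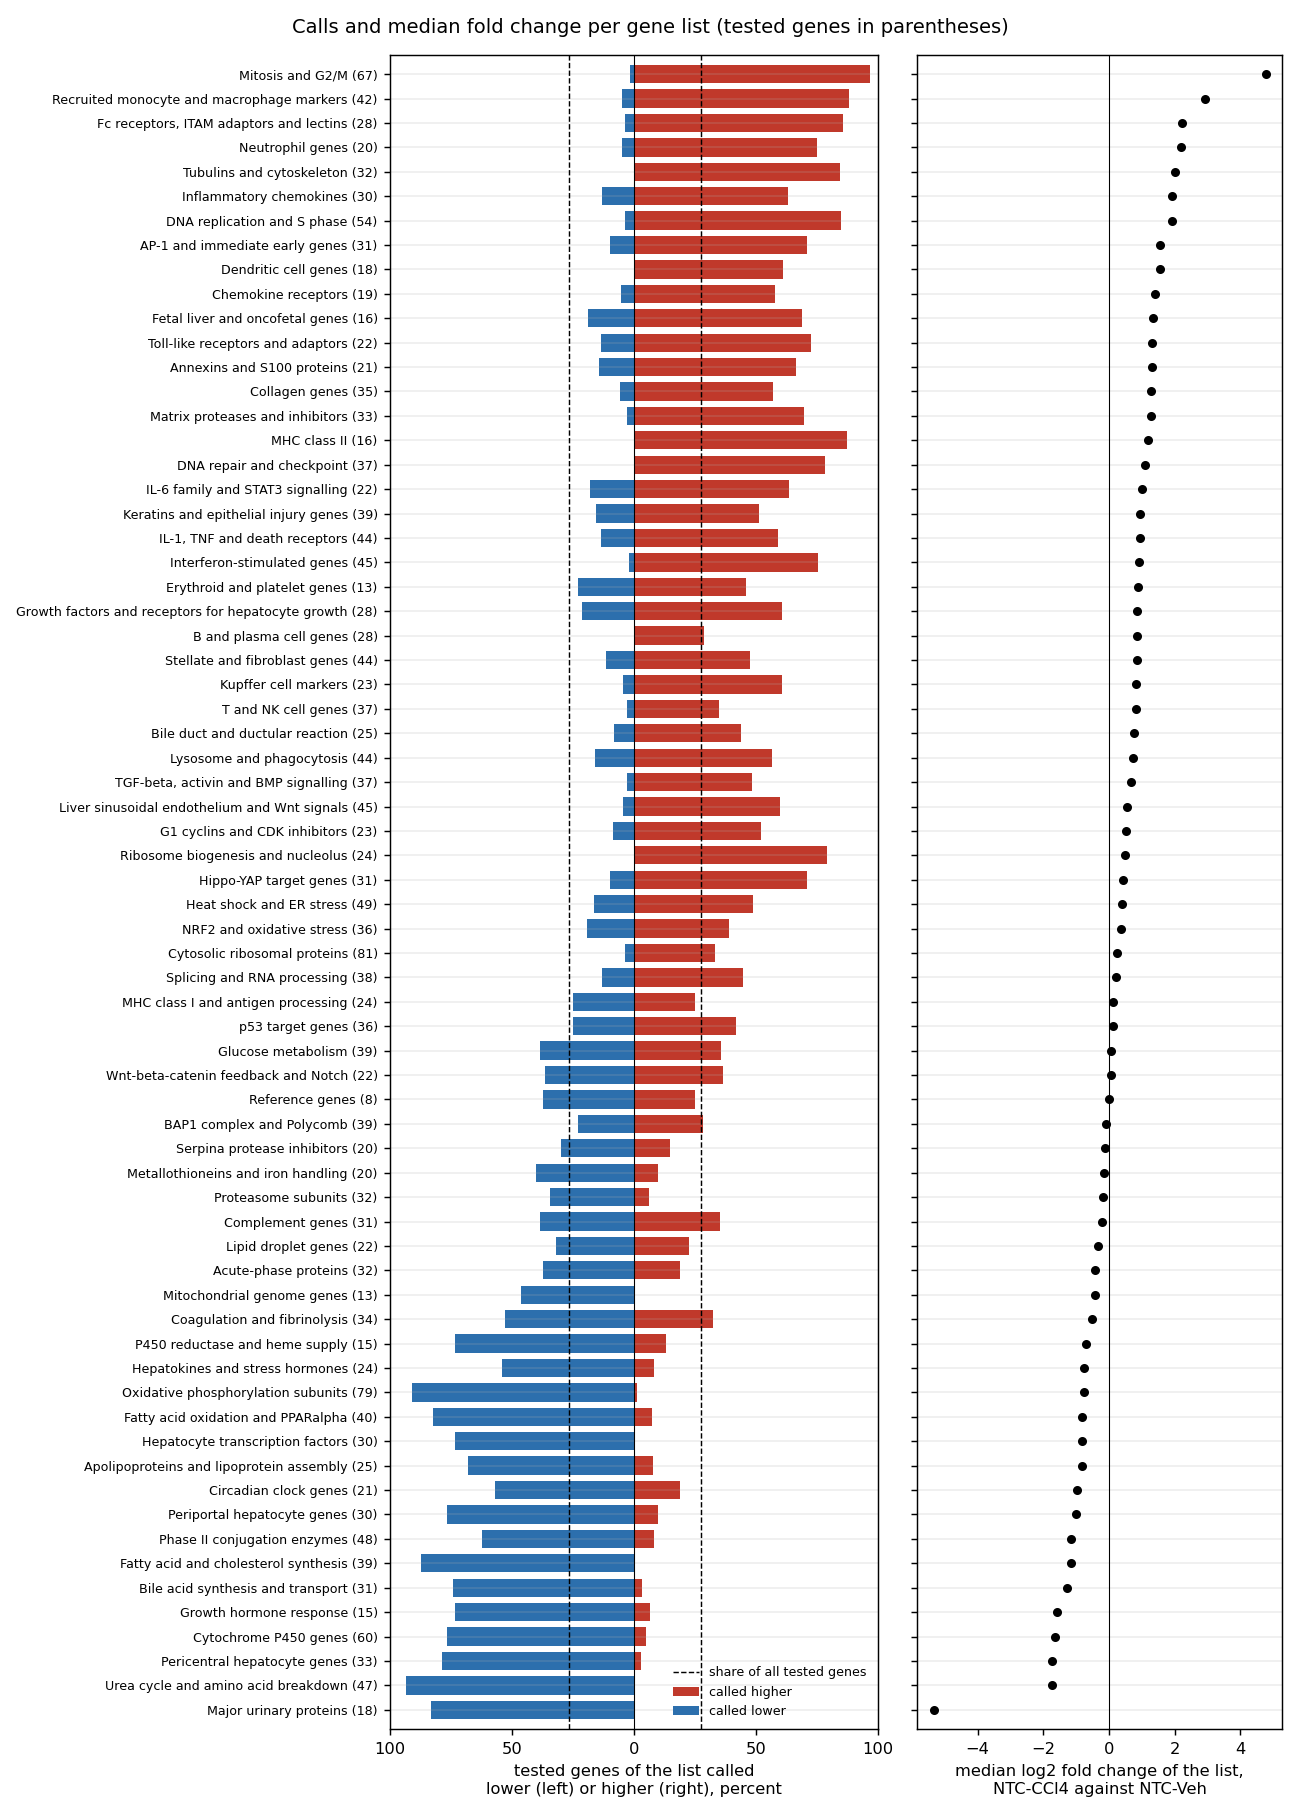
For each gene list with at least 8 tested genes, bars give the percent of its tested genes called higher (red, to the right) or lower (blue, to the left) in NTC-CCl4, beside dashed lines at the shares of all tested genes, 27.4% and 26.6%. The points in the right panel are the median log2 fold change of each list, which runs from 4.78 for mitosis down to -5.34 for the major urinary proteins.

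Pericentral hepatocyte genes were deeply lowered. Of the 33 genes, 26 fell and 1 rose, with a median of -1.73. Cyp2e1, the enzyme that activates CCl4 (ENSMUSG00000025479, GRCm38 chr7:140763739-140774987), stood at 10200.0 and 9289 CPM in vehicle and 133, 222 and 202 CPM after CCl4 (log2 fold change -5.71, SE 0.34, adjusted p = 1.87e-06). Glul, which encodes glutamine synthetase, stood at 1819 and 1527 CPM and at 96.0, 87.3 and 87.1 CPM (log2 fold change -4.21, SE 0.48, adjusted p = 0.000124). Slc1a2, a glutamate transporter of the same cells, went from 283 and 232 CPM to 0.576, 0.714 and 0.442 CPM (log2 fold change -8.77, SE 0.18, adjusted p = 4.15e-09). For all 3 genes every CCl4 liver lay far below both vehicle livers, and for Slc1a2 the CCl4 livers were below 1 CPM. Oat, which makes glutamate from ornithine, fell (log2 fold change -2.76 ± 0.24), as did the ammonium transporter Rhbg (log2 fold change -3.15 ± 0.22) and the nuclear receptor Nr1i3, known as CAR (log2 fold change -2.45 ± 0.27). Several Wnt target genes that mark the pericentral zone fell with them, among them Lgr5, at 11.2 and 13.6 CPM and then 1.94, 3.64 and 3.51 CPM (log2 fold change -2.03, SE 0.24, adjusted p = 6.56e-05), Axin2 (log2 fold change -1.73 ± 0.28) and Tbx3 (log2 fold change -3.02 ± 0.32). The one gene that rose was Slc1a4, a neutral amino acid transporter (log2 fold change 0.995 ± 0.28, not called without NTC-Veh replicate 2, at 0.74). Hamp, the iron hormone hepcidin, was not called, at 983 and 412 CPM in vehicle and 1188, 973 and 1108 CPM after CCl4, and the livers overlapped.

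Periportal genes also fell, with more exceptions, 23 lower and 3 higher of 30, with a median of -0.996. The difference between the zones was not tested. Cyp2f2, a periportal P450, stood at 654 and 656 CPM and then at 121, 102 and 151 CPM (log2 fold change -2.39, SE 0.21, adjusted p = 1.11e-05). Cps1, which commits ammonia to the urea cycle, stood at 4429.7 and 4599.7 CPM and at 1149.9, 1257 and 1581 CPM (log2 fold change -1.76, SE 0.23, adjusted p = 0.000127). Pck1, the gluconeogenic enzyme, went from 4919.5 and 4018 CPM to 1544, 1477 and 1467 CPM (log2 fold change -1.58, SE 0.23, adjusted p = 0.000276). These abundant transcripts were lower in all CCl4 livers without overlap, but remained well above the floor. Hsd17b13, a lipid droplet protein, was not called, at 284 and 299 CPM and 282, 244 and 223 CPM. The 3 that rose were Cdh1 (E-cadherin) (log2 fold change 2.14 ± 0.39), the protease Ctsc (log2 fold change 0.98 ± 0.24, not called without NTC-Veh replicate 2, at 0.93) and Sox9, a transcription factor of bile duct cells and of some periportal hepatocytes, at 2.07 and 2.19 CPM and then 8.93, 9.58 and 10.9 CPM (log2 fold change 2.20, SE 0.16, adjusted p = 3.89e-06).

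**Figure D3:**
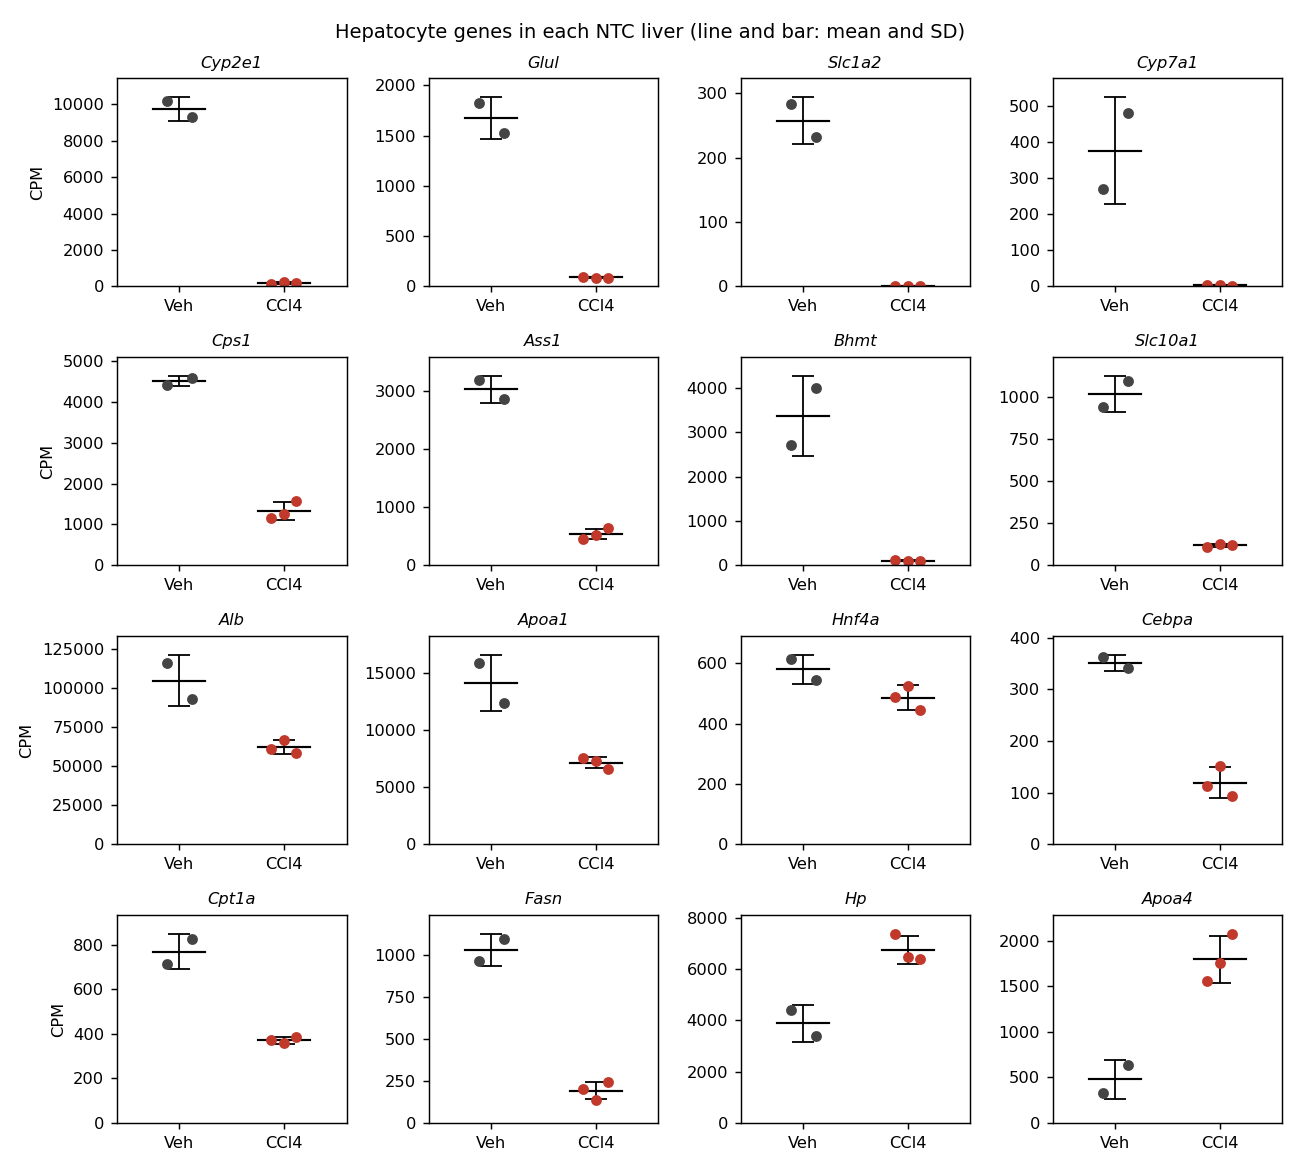
Each panel shows 1 hepatocyte gene, with CPM on a linear y axis from 0, the 2 vehicle livers in grey and the 3 CCl4 livers in red, and the mean and SD as line and bar. Cyp2e1, Glul, Slc1a2, Cyp7a1 and Bhmt lie near 0 in all CCl4 livers, Alb and Apoa1 are lower but remain abundant, Hnf4a is not called, and Hp and Apoa4 are higher.

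The cytochrome P450 family was mostly lower, 46 of 60 lower and 3 higher (0 without NTC-Veh replicate 2), and 43 of the lower ones by more than 1 log2 unit. Together these genes held 2.66% of the counts in vehicle and 0.777% after CCl4. Cyp3a11, a main drug-metabolising enzyme, went from 1829 and 1387 CPM to 344, 308 and 384 CPM (log2 fold change -2.22, SE 0.35, adjusted p = 0.000631). Cyp1a2 went from 871 and 624 CPM to 202, 409.8 and 258 CPM (log2 fold change -1.37, SE 0.30, adjusted p = 0.00364). Cyp2c69 (log2 fold change -4.36 ± 0.68), Cyp3a16 (log2 fold change -6.51 ± 0.59) and Cyp4a10 (log2 fold change -3.19 ± 0.45) also fell. The 3 that rose were Cyp2a4, at 648 and 558 CPM and 1106, 1243 and 717 CPM (log2 fold change 0.76, SE 0.21, adjusted p = 0.0118, not called without NTC-Veh replicate 2, at 0.66), Cyp4b1 (log2 fold change 0.65 ± 0.19, not called without NTC-CCl4 replicate 3 or NTC-Veh replicate 1 or 2, at 0.57, 0.74 and 0.57) and Cyp26b1, which breaks down retinoic acid (log2 fold change 1.94 ± 0.49, not called without NTC-Veh replicate 2, at 1.48). Their electron donor fell as well. Por, the P450 reductase, stood at 649 and 657 CPM and 139, 174 and 137 CPM (log2 fold change -2.12, SE 0.12, adjusted p = 1.22e-06). Cyb5a fell (log2 fold change -1.35 ± 0.18). Of the 15 genes for the reductases and heme supply, 11 fell (6 with library size alone) and 2 rose. Alas1, the rate-limiting enzyme of heme synthesis, fell (log2 fold change -1.43 ± 0.25). Hmox1, which breaks heme down, rose from 19.6 and 11.03 CPM to 93.2, 95.1 and 122 CPM (log2 fold change 2.75, SE 0.25, adjusted p = 2.11e-05).

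The promoters of the P450 genes were searched for a site of HNF4A, a receptor that drives much hepatocyte expression. The letters CAAAGTCCA, read on either strand within 250 bases before the RefSeq start, stood in 9 of 54 P450 promoters (16.7%) and in 0.384% of all 32851 promoters of the RefSeq table (GRCm38.p6). Genes called lower had 43 of the 54 promoters, and 8 of the 43 held the site. It is shown in capitals, 5′ to 3′ and with the last base next to the start, in the 150 bases before the start of Cyp3a16 (chr5:145469724-145469873, minus strand), which fell by 6.51 log2 units, while Hnf4a itself was not called. A match of letters is a description of the window and no evidence of binding.
Cyp3a16: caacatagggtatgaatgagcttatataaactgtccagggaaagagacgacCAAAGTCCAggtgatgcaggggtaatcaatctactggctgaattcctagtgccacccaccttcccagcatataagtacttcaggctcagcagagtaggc

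Conjugation enzymes were mostly lower, with a few exceptions. Of 48 phase II enzymes 30 fell and 4 rose (7 with library size alone) (median -1.15). Sult3a1, a sulfotransferase expressed mainly in female liver, stood at 164 and 106 CPM in vehicle and at 0.107, 0.150 and 0.0521 CPM after CCl4 (log2 fold change -10.26, SE 0.66, adjusted p = 8.40e-06). Sult2a8 went from 620.0 and 649 CPM to 24.5, 18.8 and 22.7 CPM (log2 fold change -4.85, SE 0.64, adjusted p = 0.000398). Ugt1a1, which conjugates bilirubin, fell (log2 fold change -2.10 ± 0.20). The 4 that rose were all glutathione transferases. Gsta1 stood at 0.136 and 0.111 CPM and then 23.2, 70.4 and 28.7 CPM (log2 fold change 8.33, SE 0.86, adjusted p = 0.000107). Gstp1 stood at 265 and 195 CPM and 866, 1405 and 659 CPM (log2 fold change 2.09, SE 0.31, adjusted p = 0.000324). The others were Gstp2 (log2 fold change 2.21 ± 0.74, not called without NTC-CCl4 replicate 2 or NTC-Veh replicate 1 or 2, at 1.55, 2.24 and 2.18) and Mgst3 (log2 fold change 0.53 ± 0.19, not called without NTC-CCl4 replicate 2 or NTC-Veh replicate 1 or 2, at 0.37, 0.60 and 0.47). NTC-CCl4 replicate 2 had the highest level in each of these 4. Gsta1 shares 90.5% of its 50-base stretches with other genes and Gstp2 54.3%, so the split of reads among such copies is uncertain.

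Bile acid synthesis and uptake genes were lower almost throughout, with 23 of 31 genes lower and 1 higher. Cyp7a1, the rate-limiting enzyme of the classic pathway (GRCm38 chr4:6265612-6275633), stood at 271 and 481 CPM in vehicle and at 2.98, 3.89 and 0.599 CPM after CCl4 (log2 fold change -7.20, SE 0.77, adjusted p = 0.000143). Akr1d1, a later step, went from 232 and 317 CPM to 21.5, 20.9 and 20.3 CPM (log2 fold change -3.71, SE 0.17, adjusted p = 6.64e-07). Cyp8b1, which sets the ratio of bile acid species, was not called, at 211 and 297 CPM and 9.15, 31.1 and 1.67 CPM (log2 fold change -4.17, SE 1.54, adjusted p = 0.0518), although all CCl4 livers lay below vehicle, and they differed widely among themselves. The uptake carriers Slc10a1, at 943 and 1095 CPM and then 107, 128 and 121 CPM (log2 fold change -3.10, SE 0.24, adjusted p = 5.87e-06), and Slco1b2 (log2 fold change -2.69 ± 0.27) fell, as did Abcb11, the export pump (log2 fold change -1.75 ± 0.25), and the bile acid receptor Nr1h4 (log2 fold change -1.69 ± 0.23). Abcc4, which pumps bile acids back to the blood, was the exception and rose from 4.27 and 3.08 CPM to 16.1, 35.8 and 25.2 CPM (log2 fold change 2.80, SE 0.41, adjusted p = 0.000547).

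Genes of the urea cycle and amino acid breakdown were lowered nearly throughout. Of 47 genes, 44 fell, 39 of them by more than 1 log2 unit and the median was -1.75. Bhmt, which remethylates homocysteine, stood at 2719.8 and 4002 CPM in vehicle and 116, 84.6 and 100.2 CPM after CCl4 (log2 fold change -5.07, SE 0.29, adjusted p = 1.57e-06). Hpd, of tyrosine breakdown, went from 2197 and 2118 CPM to 123, 156 and 181 CPM (log2 fold change -3.82, SE 0.21, adjusted p = 1.16e-06). Mat1a, which makes S-adenosylmethionine in hepatocytes, went from 4736 and 4931 CPM to 568, 857 and 624 CPM (log2 fold change -2.82, SE 0.24, adjusted p = 7.70e-06). All CCl4 livers lay below all vehicle livers for these genes. Of the urea cycle, Ass1 (log2 fold change -2.50 ± 0.19), Asl (log2 fold change -2.86 ± 0.16) and Otc (log2 fold change -2.41 ± 0.18) fell, as did Arg1, which stood at 1655 and 1209.9 CPM and 777, 847 and 724 CPM (log2 fold change -0.87, SE 0.15, adjusted p = 0.000804). Mat2a, the form of the same synthetase found outside hepatocytes and in dividing cells, was not called, at 87.3 and 88.5 CPM and 92.2, 86.2 and 90.4 CPM. Several enzymes that build serine and asparagine, which are outside this list, rose from very low levels. Psat1 went from 0.735 and 0.499 CPM to 16.6, 22.96 and 16.7 CPM (log2 fold change 4.92, SE 0.33, adjusted p = 2.82e-06). Phgdh went from 0.191 and 0.139 CPM to 7.57, 9.19 and 7.21 CPM (log2 fold change 5.58, SE 0.30, adjusted p = 1.01e-06). Asns went from 0.381 and 0.637 CPM to 4.54, 8.45 and 5.23 CPM (log2 fold change 3.58, SE 0.45, adjusted p = 0.000108).

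Genes of fat breakdown and of fat synthesis mostly fell. Of 40 genes of fatty acid oxidation and the PPARα programme, 33 fell (18 with library size alone), with a median of -0.81. Cpt1a, the gate of mitochondrial import, stood at 713 and 826 CPM and 371, 357 and 388 CPM (log2 fold change -1.05, SE 0.17, adjusted p = 0.000510). Acot3, an acyl-CoA thioesterase, fell from 119 and 214 CPM to 7.74, 4.96 and 9.92 CPM (log2 fold change -4.47, SE 0.38, adjusted p = 2.80e-05). Ucp2, a mitochondrial carrier, rose (log2 fold change 1.48 ± 0.12). Genes of fatty acid and cholesterol synthesis were mostly lower as well, with a median of -1.17 and 34 of 39 genes lower (19 with library size alone and 18 without NTC-Veh replicate 2). Fasn, the fatty acid synthase, went from 959.9 and 1095 CPM to 199, 136 and 241 CPM (log2 fold change -2.42, SE 0.59, adjusted p = 0.00866). Thrsp, its hormone-regulated partner, went from 409 and 353 CPM to 17.4, 12.8 and 11.04 CPM (log2 fold change -4.79, SE 0.93, adjusted p = 0.00342). Scd1, which desaturates fatty acids, was not called, at 3982 and 2722 CPM and 3905, 2669.9 and 3402 CPM, with overlap.

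Lipid droplet genes split, 5 higher and 7 lower (4 with library size alone) of 22, with a median of -0.32 that turned to 0.15 with library size alone. Plin2, the main droplet coat protein of the liver, stood at 572 and 478 CPM and then 984, 1020.0 and 1164 CPM (log2 fold change 1.01, SE 0.17, adjusted p = 0.000672). Cidec, which enlarges droplets, went from 0.790 and 0.887 CPM to 14.8, 14.7 and 15.4 CPM (log2 fold change 4.16, SE 1.12, adjusted p = 0.0157, not called without NTC-Veh replicate 1 or 2, at 4.07 and 4.24). Lpl, which takes fat from lipoproteins, went from 17.5 and 16.2 CPM to 177, 136 and 175 CPM (log2 fold change 3.27, SE 0.48, adjusted p = 0.000595). Hilpda, which holds back the lipase of the droplet, rose (log2 fold change 1.73 ± 0.19), and Mgll, which completes lipolysis, fell (log2 fold change -1.58 ± 0.12). Of 25 genes of lipoproteins, 17 fell and 2 rose (5 with library size alone). Apoa2 stood at 6409 and 5398 CPM and 1295, 1278 and 1268 CPM (log2 fold change -2.21, SE 0.25, adjusted p = 4.46e-05). Apoa1 stood at 15875 and 12399 CPM and 7535, 7289 and 6598 CPM (log2 fold change -0.99, SE 0.26, adjusted p = 0.00797, not called without NTC-Veh replicate 1, at -0.80). Apoe stood at 16206 and 14738 CPM and 5741, 5951 and 5069 CPM (log2 fold change -1.47, SE 0.17, adjusted p = 5.48e-05). Apob was not called (log2 fold change -0.25 ± 0.17). Apoa4, which travels on triglyceride-rich particles, rose from 326 and 631 CPM to 1557, 1749.9 and 2074 CPM (log2 fold change 1.91, SE 0.38, adjusted p = 0.00234). Apobec1, the editing enzyme of Apob mRNA, rose (log2 fold change 0.84 ± 0.11).

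Glucose genes changed in both directions, and the list had 14 higher (22 with library size alone) and 15 lower of 39 and a median of 0.07, or 0.54 with library size alone. Some liver forms fell. Pklr, the hepatic pyruvate kinase, went from 344 and 349 CPM to 111, 142 and 93.2 CPM (log2 fold change -1.59, SE 0.26, adjusted p = 0.000595). Slc2a2, the hepatic glucose carrier, went from 476 and 608 CPM to 122, 148 and 112 CPM (log2 fold change -2.09, SE 0.32, adjusted p = 0.000587). Some forms of other and of dividing cells rose. Hk2 went from 1.55 and 1.83 CPM to 8.29, 8.62 and 8.85 CPM (log2 fold change 2.34, SE 0.37, adjusted p = 0.000501). Pkm went from 15.5 and 13.3 CPM to 176, 201 and 213 CPM (log2 fold change 3.77, SE 0.22, adjusted p = 1.57e-06). Slc2a1 went from 6.97 and 7.51 CPM to 17.0, 23.4 and 20.4 CPM (log2 fold change 1.48, SE 0.18, adjusted p = 6.10e-05). Slc16a3, which exports lactate, rose (log2 fold change 4.74 ± 0.25), and G6pdx, the entry to the pentose phosphate pathway, rose (log2 fold change 2.43 ± 0.31). No liver crossed between groups in any of these 7 genes. G6pc, the last step of glucose release, fell (log2 fold change -2.58 ± 0.38).

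Most nuclear-encoded subunits of oxidative phosphorylation fell by small amounts, 72 of 79 lower (40 with library size alone) with a median of -0.76, of which 5 passed 1 log2 unit. The exception was 1 gene that rose by more than 1 log2 unit, and the largest log2 fold change of the list was 3.23. Sdhb, of complex II, stood at 178 and 162 CPM and 66.6, 73.3 and 65.5 CPM (log2 fold change -1.31, SE 0.10, adjusted p = 4.96e-06). Ndufa6, of complex I, stood at 128 and 119.9 CPM and 50.2, 60.2 and 45.2 CPM (log2 fold change -1.26, SE 0.12, adjusted p = 1.53e-05). Cycs, cytochrome c, was not called, at 127 and 119 CPM and 122, 118 and 118 CPM. Of the 13 genes of the mitochondrial genome 6 fell (0 with library size alone, 3 without NTC-CCl4 replicate 1, 2 without NTC-CCl4 replicate 2, 3 without NTC-CCl4 replicate 3 and 0 without NTC-Veh replicate 1), and the median was -0.44 and 0.04 with library size alone. The share of counts from these 13 genes was 5.14% in vehicle and 4.998% after CCl4.

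The secreted proteins of the liver did not move as a block. The 32 acute-phase genes had 6 higher (15 with library size alone and 2 without NTC-Veh replicate 2), 12 lower and 14 not called, with a median of -0.43 that was 0.05 with library size alone. Hp (haptoglobin), which binds free hemoglobin, stood at 4402 and 3386 CPM and 7374, 6462 and 6406 CPM (log2 fold change 0.79, SE 0.22, adjusted p = 0.0107, not called without NTC-Veh replicate 2, at 0.62). Cp (ceruloplasmin) stood at 1724 and 1618 CPM and 3227, 2622 and 3189 CPM (log2 fold change 0.85, SE 0.21, adjusted p = 0.00633, not called without NTC-Veh replicate 2, at 0.81). Hpx (hemopexin) rose (log2 fold change 0.50 ± 0.19, not called without NTC-CCl4 replicate 1, 2 or 3 or NTC-Veh replicate 2, at 0.44, 0.50, 0.56 and 0.31). Lcn2, which binds bacterial iron carriers, rose from 47.2 and 36.1 CPM to 475, 376 and 445 CPM (log2 fold change 3.37, SE 0.22, adjusted p = 2.45e-06). Saa3, a serum amyloid made largely by macrophages, rose from 5.69 and 3.77 CPM to 41.7, 32.7 and 19.6 CPM (log2 fold change 2.73, SE 0.44, adjusted p = 0.000947). The fibrinogen genes Fga and Fgb were not called, with log2 fold changes of 0.48 and 0.41. Among the negative acute-phase proteins, Alb stood at 116170.0 and 92935 CPM in vehicle and 60757, 66742 and 58180.0 CPM after CCl4 (log2 fold change -0.76, SE 0.23, adjusted p = 0.0168, not called without NTC-CCl4 replicate 1 or 3 or NTC-Veh replicate 1, at -0.74, -0.71 and -0.59). Ttr fell (log2 fold change -0.67 ± 0.24, not called without NTC-CCl4 replicate 1 or 3 or NTC-Veh replicate 1, at -0.64, -0.55 and -0.35). Serpina6, the carrier of corticosteroids, went from 498 and 419.7 CPM to 14.6, 18.0 and 12.8 CPM (log2 fold change -4.92, SE 0.45, adjusted p = 3.84e-05). Hamp2, the second hepcidin gene of the mouse, went from 235 and 132 CPM to 1.79, 1.58 and 2.42 CPM (log2 fold change -6.58, SE 0.37, adjusted p = 2.58e-06).

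Complement and clotting genes changed in both directions. Of 31 complement genes 11 rose and 12 fell (5 with library size alone) (median -0.22, 0.26 with library size alone). Several lectin and terminal pathway genes of hepatocytes fell, such as Mbl2, at 976 and 988 CPM and 411, 419 and 351 CPM (log2 fold change -1.32, SE 0.17, adjusted p = 8.73e-05), Masp2 (log2 fold change -1.42 ± 0.17) and C8g (log2 fold change -1.68 ± 0.16), whereas C9 rose (log2 fold change 0.81 ± 0.14). Several receptors and components known from myeloid cells rose. C5ar1 went from 1.03 and 0.499 CPM to 21.3, 25.8 and 25.6 CPM (log2 fold change 4.98, SE 0.29, adjusted p = 1.91e-06), and C3ar1 (log2 fold change 3.61 ± 0.22), Itgam (log2 fold change 4.55 ± 0.28) and C1qa (log2 fold change 1.31 ± 0.22) rose. Of 34 genes of coagulation and fibrinolysis 18 fell and 11 rose. Several plasma factors of hepatocytes fell moderately, among them F2, prothrombin, at 2245 and 2086 CPM and 1032, 1112 and 984 CPM (log2 fold change -1.05, SE 0.16, adjusted p = 0.000351). F7 (log2 fold change -1.48 ± 0.14), F10 (log2 fold change -1.25 ± 0.15), Serpinc1, antithrombin (log2 fold change -1.31 ± 0.15), and Plg, plasminogen (log2 fold change -1.08 ± 0.16), fell. Several genes of the tissue arm rose from low levels. Plau, urokinase, went from 1.58 and 1.72 CPM to 19.3, 21.8 and 24.9 CPM (log2 fold change 3.74, SE 0.18, adjusted p = 6.64e-07). Its receptor Plaur rose (log2 fold change 4.77 ± 0.25), and Thbd, thrombomodulin, rose (log2 fold change 3.20 ± 0.38). No liver crossed between groups in these.

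Genes under growth hormone and other systemic hormones were mostly lower. Ghr, the growth hormone receptor, stood at 526 and 511 CPM and 131, 161 and 121 CPM (log2 fold change -1.91, SE 0.19, adjusted p = 1.95e-05). Its targets Igf1 (log2 fold change -0.98 ± 0.23), Igfals (log2 fold change -1.75 ± 0.17) and Socs2 (log2 fold change -2.49 ± 0.50) fell. Of 15 such genes 11 fell, and the one that rose was Igfbp1, at 135 and 137 CPM and 325, 391 and 454 CPM (log2 fold change 1.52, SE 0.30, adjusted p = 0.00194), known to respond to stress and fasting. The major urinary proteins, secreted pheromone carriers, had 15 of 18 lower and a median of -5.34. Mup3 stood at 1786 and 842 CPM and 322, 378 and 99.3 CPM (log2 fold change -2.30, SE 0.61, adjusted p = 0.0126, not called without NTC-Veh replicate 1, at -1.66). Mup22 stood at 1658 and 619 CPM and 14.9, 30.2 and 5.67 CPM (log2 fold change -6.07, SE 0.81, adjusted p = 0.000434). Vehicle replicate 1 was well above replicate 2 in both genes, and 15 of the 18 tested genes share more than 20% of their 50-base stretches with other genes. Among hepatokines, Fgf21 and Gdf15, which mark metabolic stress, were not called (1.19 and 0.82 log2 units), and Agt, angiotensinogen, fell (log2 fold change -1.28 ± 0.16). Serpina7, the thyroxine carrier, rose from 55.5 and 70.3 CPM to 238, 237 and 247 CPM (log2 fold change 1.94, SE 0.43, adjusted p = 0.00534).

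Most transcription factors of hepatocyte identity fell modestly. Of 30, 22 fell (12 with library size alone), with a median of -0.81. Hnf4a was not called, at 613 and 546 CPM and 488, 526 and 445 CPM (log2 fold change -0.25, SE 0.13, adjusted p = 0.125). Cebpa, which also holds hepatocytes out of the cell cycle, went from 362 and 341 CPM to 112, 152 and 93.2 CPM (log2 fold change -1.56, SE 0.18, adjusted p = 6.42e-05). Mlxipl, the carbohydrate sensor, went from 405 and 338 CPM to 96.7, 106 and 82.7 CPM (log2 fold change -1.97, SE 0.17, adjusted p = 7.46e-06). Klf15, of amino acid breakdown, fell (log2 fold change -2.13 ± 0.13). Of 21 clock genes 12 fell and 4 rose (8 with library size alone). Dbp, at 123 and 182 CPM and 26.3, 26.8 and 12.2 CPM (log2 fold change -2.80, SE 0.45, adjusted p = 0.00103), Per3 (log2 fold change -2.58 ± 0.30) and Nr1d1 (log2 fold change -1.41 ± 0.12), which share a phase in the normal liver, fell. Arntl (Bmal1), of the opposite phase, rose from 2.15 and 2.44 CPM to 6.86, 7.01 and 9.32 CPM (log2 fold change 1.75, SE 0.30, adjusted p = 0.000685). Times of day of tissue collection are not given in the sources used here, so time of day and treatment cannot be told apart.

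The cell cycle list of mitosis had the largest share of genes called higher of all lists. Of 67 genes of mitosis and G2/M, 65 rose, 63 of them by more than 1 log2 unit, with a median of 4.78. Ccnb1, the mitotic cyclin, stood at 0.218 and 0.388 CPM in vehicle and 43.5, 23.9 and 40.1 CPM after CCl4 (log2 fold change 6.87, SE 0.45, adjusted p = 5.00e-06). Mki67, the common proliferation marker, went from 2.78 and 3.21 CPM to 152, 73.9 and 138 CPM (log2 fold change 5.34, SE 0.38, adjusted p = 7.56e-06). Cdc20, of the anaphase-promoting complex, went from 0.626 and 0.554 CPM to 57.5, 29.7 and 47.6 CPM (log2 fold change 6.24, SE 0.44, adjusted p = 7.27e-06). The groups did not overlap, and NTC-CCl4 replicate 2 was the lowest CCl4 liver in all 3. The list summed to 0.0134% and 0.0133% of the counts in vehicle and to 0.194%, 0.115% and 0.172% after CCl4. Pttg1, securin, was the one member that fell (log2 fold change -0.62 ± 0.15). Ckap2l (log2 fold change 6.35 ± 0.55), Hmmr (log2 fold change 6.15 ± 0.38) and Cenpf (log2 fold change 5.84 ± 0.41), of the spindle and kinetochore, were among the genes with the largest increases of all.

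Genes of DNA replication mostly rose as well, 46 of 54 higher with a median of 1.92. Mcm5, of the replicative helicase, stood at 2.15 and 1.55 CPM and 43.8, 32.3 and 38.3 CPM (log2 fold change 4.36, SE 0.21, adjusted p = 7.41e-07). Ccna2, the S phase cyclin, stood at 1.12 and 1.08 CPM and 45.7, 25.5 and 38.8 CPM (log2 fold change 5.06, SE 0.30, adjusted p = 2.15e-06). Uhrf1, which keeps DNA methylation, stood at 0.653 and 0.499 CPM and 28.9, 22.1 and 25.5 CPM (log2 fold change 5.46, SE 0.33, adjusted p = 2.21e-06). In these genes NTC-CCl4 replicate 2 was again lowest, but all CCl4 livers lay far above vehicle. Pcna, with a high base level, rose (log2 fold change 1.25 ± 0.10). Mcm10 fell, from 42.7 and 31.5 CPM to 14.9, 15.7 and 10.7 CPM (log2 fold change -1.43, SE 0.28, adjusted p = 0.00240). Of G1 regulators 12 of 23 rose (19 with library size alone). Ccnd1, the cyclin that leads hepatocytes out of rest, stood at 233 and 179 CPM and 307, 265 and 357 CPM (log2 fold change 0.59, SE 0.15, adjusted p = 0.00763, not called without NTC-Veh replicate 2, at 0.41). Cdkn1a (p21) stood at 46.5 and 21.9 CPM and 83.6, 91.0 and 79.9 CPM (log2 fold change 1.31, SE 0.29, adjusted p = 0.00485). Myc stood at 14.3 and 5.76 CPM and 19, 25.5 and 20.8 CPM (log2 fold change 1.12, SE 0.35, adjusted p = 0.0252, not called without NTC-CCl4 replicate 2 or NTC-Veh replicate 2, at 0.99 and 0.61). Rbl2, a pocket protein of resting cells, fell (log2 fold change -1.09 ± 0.11). DNA repair and checkpoint genes had 29 of 37 higher, for example Clspn (log2 fold change 5.06 ± 0.45). Of 36 p53 targets 15 rose and 9 fell (2 with library size alone) (median 0.12, 0.59 with library size alone), among which Mdm2 rose (log2 fold change 0.38 ± 0.09) and Ccng1 fell (log2 fold change -0.72 ± 0.10).

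The letters of cell cycle elements stood in a larger share of mitosis promoters than of all promoters. The cell cycle homology region, searched as TTTGAA or TTCGAA on either strand within 250 bases before the start, stood in 26 of 62 mitosis promoters (41.9%) and 17.1% of all promoters, and the CCAAT box in 44 (71.0%) and 33.8%. Neither was confined to mitosis genes. In the other lists searched the homology region stood in 4.08% (heat shock and ER stress) to 29.6% (P450) of promoters. The CCAAT box stood in 34.2% (interferon-stimulated) to 59.6% (S phase) of them. The E2F site TTTCCCGC or TTTGGCGC stood in 9 of 52 S phase promoters (17.3%) against 1.30% of all. Of the 67 mitosis genes 58 were found in the RefSeq table, some with more than 1 promoter. The 150 bases before the start of Ckap2l (chr2:129297213-129297362), Cdc20 (chr4:118437344-118437493) and Mki67 (chr7:135716380-135716529) are shown, all on the minus strand, with homology regions and CCAAT boxes of either strand in capitals.
Ckap2l: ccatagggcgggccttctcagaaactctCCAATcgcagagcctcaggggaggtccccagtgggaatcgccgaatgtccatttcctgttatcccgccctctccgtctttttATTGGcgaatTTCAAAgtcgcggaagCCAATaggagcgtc
Cdc20: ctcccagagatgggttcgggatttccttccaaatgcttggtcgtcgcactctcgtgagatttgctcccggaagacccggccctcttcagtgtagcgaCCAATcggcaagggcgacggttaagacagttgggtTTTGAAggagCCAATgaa
Mki67: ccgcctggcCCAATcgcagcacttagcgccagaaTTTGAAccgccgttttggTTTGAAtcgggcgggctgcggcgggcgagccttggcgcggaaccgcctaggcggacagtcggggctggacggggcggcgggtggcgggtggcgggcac

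**Figure D4:**
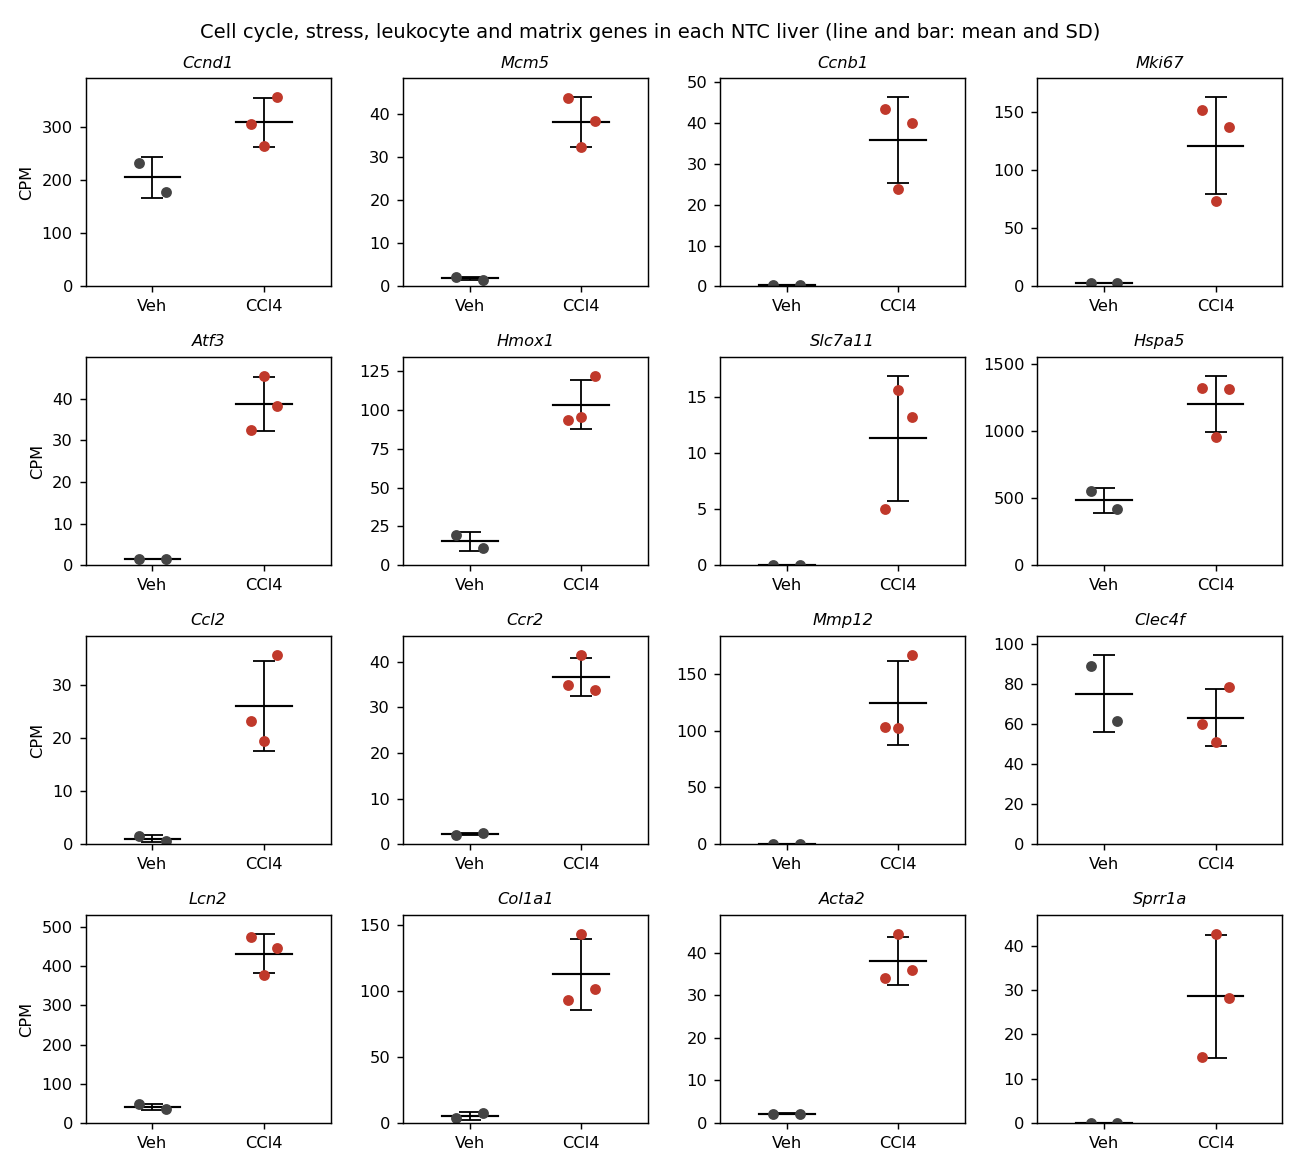
Each panel shows 1 gene of the cell cycle, stress, leukocyte or matrix groups, with CPM on a linear y axis from 0, vehicle livers in grey, CCl4 livers in red, and the mean and SD as line and bar. Clec4f overlaps between the groups, Ccnd1 rises little, and in the other panels all CCl4 livers stand above both vehicle livers.

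Genes of oxidative stress responded unevenly. Of 36 genes of the NRF2 programme, the main antioxidant response, 14 rose (22 with library size alone and 9 without NTC-Veh replicate 2) and 7 fell (median 0.36). Gclc, which limits glutathione synthesis, stood at 173 and 144 CPM and 292, 732 and 257 CPM (log2 fold change 1.43, SE 0.44, adjusted p = 0.0230, not called without NTC-Veh replicate 1 or 2, at 1.57 and 1.31). Srxn1, sulfiredoxin, stood at 48.9 and 50.9 CPM and 135, 368 and 135 CPM (log2 fold change 2.09, SE 0.44, adjusted p = 0.00411). Cbr3, a carbonyl reductase, went from 0.490 and 0.388 CPM to 1.98, 11.4 and 1.30 CPM (log2 fold change 3.50, SE 1.11, adjusted p = 0.0277, not called without NTC-Veh replicate 1 or 2, at 3.68 and 3.35). In all 3 genes NTC-CCl4 replicate 2 stood far above the other CCl4 livers, which themselves lay above vehicle, and all 3 were still called without it. Slc7a11, the cystine carrier, was under the floor in vehicle and stood at 5.05, 15.6 and 13.2 CPM after CCl4 (adjusted p = 3.63e-05). Several abundant antioxidant enzymes fell. Cat, catalase, went from 2564 and 2487 CPM to 701, 885 and 675 CPM (log2 fold change -1.74, SE 0.16, adjusted p = 1.37e-05), and Gpx1 (log2 fold change -1.74 ± 0.14) and Sod1 (log2 fold change -1.10 ± 0.13) fell. Gclm fell (log2 fold change -0.56 ± 0.12) and Nfe2l2 itself was not called (log2 fold change -0.20 ± 0.08). The metallothionein Mt1 was not called (-0.50 log2 units), and of the 20 genes of metal and iron handling 2 rose (9 with library size alone), Tfrc (log2 fold change 1.13 ± 0.13) and Slc11a2 (log2 fold change 0.85 ± 0.13), both iron importers, and 8 fell, while the median, -0.15, turned to 0.33 with library size alone.

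The endoplasmic reticulum and heat shock genes had 24 of 49 higher and 8 lower (3 with library size alone). Hspa5 (BiP), the main chaperone of the endoplasmic reticulum, stood at 549 and 416 CPM and 1321, 955 and 1313 CPM (log2 fold change 1.31, SE 0.18, adjusted p = 0.000156). Creld2, a folding factor, stood at 18.98 and 11.8 CPM and 63.98, 39.6 and 61.9 CPM (log2 fold change 1.84, SE 0.25, adjusted p = 0.000268). Ddit3 (CHOP) went from 3.84 and 3.85 CPM to 7.93, 13.5 and 12.8 CPM (log2 fold change 1.57, SE 0.21, adjusted p = 0.000149). Atf4, mainly regulated by translation, was not called (log2 fold change 0.08 ± 0.09), while Herpud1, of protein degradation at the reticulum, fell (log2 fold change -1.28 ± 0.15). The cytosolic Hsp90aa1 rose (log2 fold change 1.13 ± 0.12). The endoplasmic reticulum stress element, searched as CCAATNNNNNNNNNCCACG on either strand and so holding a CCAAT box, stood in 6 of 49 promoters of these genes (12.2%) against 0.113% of all, and all 6 belonged to genes called higher. The element is in capitals in the 150 bases before the start of Creld2 (chr15:88819496-88819645, plus strand).
Creld2: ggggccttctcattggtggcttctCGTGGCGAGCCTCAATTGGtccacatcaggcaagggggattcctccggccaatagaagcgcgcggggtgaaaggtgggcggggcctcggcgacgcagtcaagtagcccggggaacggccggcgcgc

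Immediate early and injury genes were strongly raised 48 h after the dose. Of 31 genes, 22 rose and 3 fell (median 1.54). Atf3 stood at 1.58 and 1.55 CPM in vehicle and 32.4, 45.4 and 38.2 CPM after CCl4 (log2 fold change 4.62, SE 0.38, adjusted p = 1.63e-05). Fos stood at 1.69 and 1.41 CPM and 14.2, 18.1 and 15.4 CPM (log2 fold change 3.35, SE 0.26, adjusted p = 5.23e-06). Egr2 stood at 0.163 and 0.0554 CPM and 4.50, 6.24 and 6.32 CPM (log2 fold change 5.66, SE 0.37, adjusted p = 2.41e-06). All CCl4 livers were far above vehicle in these 3 transcription factors. Jun (log2 fold change 1.90 ± 0.31), Klf6 (log2 fold change 2.21 ± 0.18) and Ier3 (log2 fold change 3.69 ± 0.18) rose, whereas Klf10 fell (log2 fold change -1.05 ± 0.19). Tnfrsf12a, the receptor of TWEAK and a mark of injured epithelium, went from 4.03 and 3.71 CPM to 74.4, 67.3 and 78.9 CPM (log2 fold change 4.25, SE 0.11, adjusted p = 1.75e-08). Sprr1a, an epithelial cornification gene known from injured tissue (GRCm38 chr3:92483952-92485895), had no count in either vehicle liver and stood at 14.9, 42.7 and 28.1 CPM after CCl4, at least 344-fold higher against the floor of 3 counts per library. Ly6d went from 1.52 and 1.19 CPM to 107, 136 and 138 CPM (log2 fold change 6.54, SE 0.35, adjusted p = 1.99e-06). The hepatocyte keratin Krt8 stood at 177 and 191 CPM and 795, 855 and 912 CPM (log2 fold change 2.21, SE 0.14, adjusted p = 1.87e-06), and its partner Krt18 rose (log2 fold change 2.17 ± 0.14).

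In the cytokine lists, which hold ligands, receptors and death genes, more genes rose than fell. In the IL-6 family 14 of 22 rose. Osmr, the oncostatin M receptor, stood at 3.02 and 3.80 CPM and 17.8, 15.2 and 25.4 CPM (log2 fold change 2.51, SE 0.25, adjusted p = 2.73e-05). Socs3, the feedback inhibitor of STAT3, stood at 12.2 and 7.93 CPM and 30.5, 25.3 and 42.9 CPM (log2 fold change 1.71, SE 0.27, adjusted p = 0.000606). Lifr fell from 638 and 522 CPM to 208, 167 and 209 CPM (log2 fold change -1.57, SE 0.14, adjusted p = 1.24e-05) and Il6ra fell (log2 fold change -1.13 ± 0.18). Among 44 genes of IL-1, TNF and cell death 26 rose and 6 fell (2 with library size alone). Tnf stood at 0.245 and 0.139 CPM and 1.47, 2.27 and 2.52 CPM (log2 fold change 3.42, SE 0.42, adjusted p = 7.54e-05). Il1b stood at 2.89 and 1.47 CPM and 3.43, 6.71 and 7.08 CPM (log2 fold change 1.39, SE 0.44, adjusted p = 0.0231, not called without NTC-CCl4 replicate 2 or 3 or NTC-Veh replicate 2, at 1.26, 1.22 and 0.99). Il1rn, the natural antagonist of IL-1, stood at 6.64 and 3.44 CPM and 39.7, 50.1 and 67.1 CPM (log2 fold change 3.37, SE 0.34, adjusted p = 5.53e-05). Each of these was higher in every CCl4 liver than in any vehicle liver. Il33, an alarm signal of tissue cells, rose (log2 fold change 2.59 ± 0.30), the necroptosis genes Ripk3 (log2 fold change 2.11 ± 0.23) and Mlkl (log2 fold change 1.49 ± 0.16) rose, Fas fell (log2 fold change -0.79 ± 0.15) and Il18 fell (log2 fold change -1.18 ± 0.19).

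Most chemokines, which draw leukocytes into tissue, rose. Of 30 chemokines, 19 rose and 4 fell. Ccl2 stood at 1.44 and 0.554 CPM and 23.3, 19.5 and 35.8 CPM (log2 fold change 4.70, SE 0.54, adjusted p = 0.000141). Ccl7 stood at 0.136 and 0.139 CPM and 15.6, 10.8 and 21.2 CPM (log2 fold change 6.82, SE 0.58, adjusted p = 1.49e-05). Their receptor Ccr2 went from 2.07 and 2.38 CPM to 34.9, 41.5 and 33.9 CPM (log2 fold change 4.04, SE 0.14, adjusted p = 1.55e-07), with no overlap. Cxcl1, which draws neutrophils, stood at 6.64 and 4.05 CPM and 20.3, 19.2 and 49.4 CPM (log2 fold change 2.47, SE 0.47, adjusted p = 0.00237). Cxcl14 rose (log2 fold change 4.70 ± 0.40). Cxcl10 (log2 fold change 3.48 ± 0.41) and Cxcl9 (log2 fold change 1.97 ± 0.40), which draw T cells, rose, while their receptor Cxcr3 was not called (log2 fold change 0.73 ± 0.43). Cxcl12, abundant in the resting liver, fell from 384 and 564 CPM to 217, 196 and 232 CPM (log2 fold change -1.14, SE 0.15, adjusted p = 0.000121). Of 19 receptors 11 rose, including Ccr1 (log2 fold change 5.24 ± 0.23) and the neutrophil receptor Cxcr2 (log2 fold change 2.46 ± 0.26).

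Markers of recruited macrophages rose almost throughout. Of 42 markers of recruited monocytes and macrophages, 37 rose with a median of 2.92, and the 2 that fell, Arg1 and F10, are also hepatocyte transcripts. The summed level of the 42 markers, with Arg1 and F10 included, was 3923 to 4527 CPM in vehicle and 5500.0 to 5945 CPM after CCl4. Gpnmb, of lipid-laden macrophages (GRCm38 chr6:49036546-49070929), stood at 0.136 and 0.388 CPM in vehicle and 57.6, 70.8 and 95.7 CPM after CCl4 (log2 fold change 8.14, SE 0.53, adjusted p = 6.85e-06). Mmp12, the macrophage elastase, stood at 0.299 and 0.305 CPM and 104, 103 and 167 CPM (log2 fold change 8.67, SE 0.33, adjusted p = 4.88e-07). Trem2, a lipid receptor, stood at 1.12 and 0.970 CPM and 15.7, 21.3 and 15.7 CPM (log2 fold change 4.07, SE 0.25, adjusted p = 1.80e-06). These went from near the floor or about 1 CPM to levels without overlap. Lgals3 (log2 fold change 5.35 ± 0.28), Lyz2 (log2 fold change 2.96 ± 0.21) and Ly6c2 (log2 fold change 3.68 ± 0.28), of monocytes, rose. Of the defining markers of resident Kupffer cells several were not called. Clec4f stood at 88.8 and 61.5 CPM and 60.0, 51.0 and 78.7 CPM (log2 fold change -0.25, SE 0.24, adjusted p = 0.418). Timd4 stood at 8.14 and 4.96 CPM and 8.49, 5.47 and 14.7 CPM (log2 fold change 0.53, SE 0.41, adjusted p = 0.303). Vsig4 stood at 27.8 and 18.1 CPM and 37.5, 28.5 and 43.4 CPM (log2 fold change 0.67, SE 0.28, adjusted p = 0.0755). Of all 23 genes of that list 14 rose, and its summed level was 589 to 791 CPM in vehicle and 1183 to 1728 CPM after CCl4. Among them were Marco, from 23.7 and 6.10 CPM to 218, 154 and 381 CPM (log2 fold change 4.08, SE 0.72, adjusted p = 0.00195), and Cd5l (log2 fold change 1.54 ± 0.32).

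Neutrophil genes had 15 of 20 higher, with S100a8 and Csf3r at low levels. S100a8 stood at 2.15 and 1.08 CPM and 6.25, 6.71 and 7.08 CPM (log2 fold change 2.04, SE 0.32, adjusted p = 0.000408). Csf3r stood at 4.36 and 2.38 CPM and 11.4, 16.4 and 14.9 CPM (log2 fold change 2.08, SE 0.24, adjusted p = 5.88e-05). The list summed to 393 to 482 CPM in vehicle and 617 to 728 CPM after CCl4, mostly from members other than S100a8 and Csf3r. The defining gene Ly6g was under the filter on low counts and not tested, and the granule genes Mpo and Ngp were not called. Of 18 dendritic cell genes 11 rose, among them Itgax (log2 fold change 3.33 ± 0.26) and Irf8 (log2 fold change 1.68 ± 0.15), which macrophages also express, and the list summed to 32.0 to 33.4 CPM in vehicle and 89.1 to 102 CPM after CCl4. Of 37 T and NK cell genes 13 rose (24 with library size alone and 3 without NTC-Veh replicate 2), and their summed level was 17.8 to 36.1 CPM in vehicle and 45.1 to 62.6 CPM after CCl4. Cd3d (log2 fold change 0.68 ± 0.59), Cd3e (log2 fold change 0.74 ± 0.51) and Trac (log2 fold change 0.60 ± 0.61) were not called. Cd4 (log2 fold change 1.58 ± 0.40, not called without NTC-Veh replicate 2, at 1.29) and Cd8a (log2 fold change 1.69 ± 0.47, not called without NTC-Veh replicate 2, at 1.22) rose, as did Trdc, the constant part of the γδ T cell receptor, at 0.136 and 0.0554 CPM and 7.76, 22.1 and 15.4 CPM (log2 fold change 7.26, SE 0.73, adjusted p = 4.19e-05). Of 28 B and plasma cell genes 8 rose (21 with library size alone, 4 without NTC-CCl4 replicate 3 and 2 without NTC-Veh replicate 2), a share of 28.6%, near the 27.4% of all genes. The red cell genes Hba-a1 (log2 fold change 1.35 ± 0.44, not called without NTC-Veh replicate 2, at 1.04) and Hbb-bs (log2 fold change 1.19 ± 0.36, not called without NTC-Veh replicate 2, at 0.96) were higher, with the highest level in NTC-CCl4 replicate 2, at 454 and 963 CPM.

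Genes of phagocytes rose broadly. Of 28 Fc receptors, adaptors and lectins 24 rose and 1 fell, Fcgrt, the neonatal Fc receptor of hepatocytes and endothelium (log2 fold change -0.78 ± 0.15). Clec7a (Dectin-1) stood at 4.96 and 4.38 CPM and 56.3, 54.0 and 71.6 CPM (log2 fold change 3.70, SE 0.19, adjusted p = 8.49e-07). Clec4d stood at 0.136 and 0.166 CPM and 5.14, 5.88 and 7.05 CPM (log2 fold change 5.29, SE 0.32, adjusted p = 1.76e-06). Fcgr1 stood at 3.40 and 2.19 CPM and 19.3, 18.4 and 19.3 CPM (log2 fold change 2.76, SE 0.22, adjusted p = 5.98e-06). All 3 were without overlap. Of 22 Toll-like receptors and adaptors 16 rose, with Tlr13 (log2 fold change 3.40 ± 0.16), Tlr1 (log2 fold change 3.49 ± 0.17) and Cd14, at 2.695 and 1.88 CPM and 22.5, 38.3 and 35.7 CPM (log2 fold change 3.81, SE 0.27, adjusted p = 4.71e-06). Lysosomal genes had 25 of 44 higher and 7 lower (4 with library size alone). Ctss (log2 fold change 2.42 ± 0.14), Cd63 (log2 fold change 4.24 ± 0.20) and Cd68 (log2 fold change 3.27 ± 0.26), of macrophage lysosomes, rose, while Lamp2 (log2 fold change -0.80 ± 0.11) and Npc1 (log2 fold change -1.02 ± 0.10) fell. The NADPH oxidase gene Cybb rose (log2 fold change 2.41 ± 0.21), as did Axl (log2 fold change 2.02 ± 0.17), a receptor for dying cells, whereas its relative Mertk was not called (log2 fold change -0.24 ± 0.15).

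MHC class II genes, which present antigen to T cells, mostly rose. Of 16 class II genes 14 rose, and H2-Aa stood at 24.6 and 25.0 CPM and 44.6, 46.1 and 68.6 CPM (log2 fold change 1.098, SE 0.20, adjusted p = 0.00116). Cd74, the invariant chain, stood at 67.3 and 61.1 CPM and 123, 123 and 182 CPM (log2 fold change 1.15, SE 0.20, adjusted p = 0.000828). In the sgBap1 livers 5 of these 14 had the same sign under CCl4. Class I genes were near the share of all genes, 6 higher (17 with library size alone) and 6 lower (2 with library size alone) of 24. H2-K1 fell, from 1453 and 1468 CPM to 775, 813 and 821 CPM (log2 fold change -0.86, SE 0.12, adjusted p = 0.000149), and Tap1 (log2 fold change 0.54 ± 0.11) and Psmb8 (log2 fold change 0.56 ± 0.10) rose. Of 45 interferon-stimulated genes 34 rose (median 0.92). Rsad2 (viperin) stood at 8.77 and 9.56 CPM and 89.8, 153 and 106 CPM (log2 fold change 3.67, SE 0.52, adjusted p = 0.000490). Isg15 stood at 16.2 and 13.4 CPM and 90.8, 72.4 and 56.3 CPM (log2 fold change 2.31, SE 0.29, adjusted p = 0.000153). Oas3 stood at 2.48 and 2.33 CPM and 15.2, 12 and 10.6 CPM (log2 fold change 2.39, SE 0.20, adjusted p = 7.43e-06). The groups did not overlap in these genes. The interferon-stimulated response element, searched as GAAANNGAAA on either strand, stood in 17 of 38 promoters of the list (44.7%) and 2.98% of all. Genes called higher had 27 of these promoters, and 13 of the 27 held it, so it also stood before genes not called higher. The element is shown in capitals before the starts of Rsad2 (chr12:26456453-26456602) and Oas3 (chr5:120777660-120777809), both on the minus strand.
Rsad2: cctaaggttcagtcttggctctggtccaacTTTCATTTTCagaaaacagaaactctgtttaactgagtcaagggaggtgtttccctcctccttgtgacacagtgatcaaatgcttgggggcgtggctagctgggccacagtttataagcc
Oas3: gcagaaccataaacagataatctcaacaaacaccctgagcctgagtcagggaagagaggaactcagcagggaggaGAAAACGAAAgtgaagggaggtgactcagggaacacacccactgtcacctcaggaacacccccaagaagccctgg

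Many matrix genes rose at this early time. Of 35 collagen and collagen-processing genes 20 rose and 2 fell (median 1.29). Col1a1, the fibril collagen of scars, stood at 3.43 and 7.57 CPM and 93.1, 143 and 102 CPM (log2 fold change 4.36, SE 0.88, adjusted p = 0.00422). Col3a1 stood at 14.9 and 25.8 CPM and 159, 205 and 154 CPM (log2 fold change 3.08, SE 0.69, adjusted p = 0.00664, not called without NTC-Veh replicate 1, at 2.74). Col4a1, of basement membrane, stood at 27.6 and 22.8 CPM and 199, 206 and 212 CPM (log2 fold change 3.03, SE 0.22, adjusted p = 4.28e-06). The vehicle livers differed in Col1a1, with replicate 2 higher, and all CCl4 livers lay far above the higher one. Lox, which cross-links collagen, rose (log2 fold change 4.62 ± 0.87). Col18a1, which hepatocytes express, fell from 1213 and 1239 CPM to 536, 526 and 485 CPM (log2 fold change -1.25, SE 0.16, adjusted p = 8.92e-05). Of 44 stellate cell and fibroblast genes 21 rose and 5 fell, and their summed level was 3339 to 3483 CPM in vehicle and 4275 to 4497 CPM after CCl4. Acta2, the mark of activated stellate cells, went from 2.21 and 2.11 CPM to 34.0, 44.4 and 35.8 CPM (log2 fold change 4.14, SE 0.53, adjusted p = 0.000279). Timp1, which blocks matrix proteases, went from 0.191 and 0.970 CPM to 21.8, 22.2 and 21.4 CPM (log2 fold change 5.23, SE 0.55, adjusted p = 7.81e-05). Tnc, tenascin C, went from 0.599 and 1.08 CPM to 37.2, 50.7 and 41.2 CPM (log2 fold change 5.68, SE 0.39, adjusted p = 6.64e-06). Some markers of quiescent stellate cells, such as Reln and Rgs5, were not called, and Vipr1 (log2 fold change -1.99 ± 0.12) and Colec11 (log2 fold change -1.11 ± 0.14) fell. Dcn, Lum and Postn, of mature fibroblasts, were not called.

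Matrix proteases and their inhibitors had 23 of 33 higher. Mmp13, a collagenase, stood at 0.245 and 0.333 CPM and 10.9, 10.2 and 12.02 CPM (log2 fold change 5.25, SE 0.22, adjusted p = 5.92e-07). Adamts4 stood at 0.191 and 0.222 CPM and 7.16, 8.06 and 10.2 CPM (log2 fold change 5.34, SE 0.38, adjusted p = 3.37e-06). Of 37 genes of TGF-β, activin and BMP signalling 18 rose (28 with library size alone). Tgfb1 stood at 8.58 and 6.90 CPM and 27.0, 32.7 and 29.0 CPM (log2 fold change 1.93, SE 0.18, adjusted p = 1.44e-05). Fst, follistatin, the antagonist of activin, stood at 2.15 and 2.22 CPM and 25.2, 18.1 and 22.7 CPM (log2 fold change 3.33, SE 0.24, adjusted p = 3.85e-06). Id1, a BMP target, stood at 8.90 and 5.15 CPM and 58.0, 50.2 and 48.04 CPM (log2 fold change 2.89, SE 0.23, adjusted p = 7.34e-06). Among sinusoidal endothelial genes 27 of 45 rose, with a summed level of 864 to 935 CPM in vehicle and 1112 to 1180.0 CPM after CCl4. Of the identity genes Stab2 and Kdr were not called (-0.16 and 0.12 log2 units), Stab1 (log2 fold change 0.75 ± 0.15) and Lyve1 (log2 fold change 1.599 ± 0.21) rose, and Ehd3 fell (log2 fold change -0.997 ± 0.12). The adhesion molecules Vcam1, at 10.5 and 11.6 CPM and 49.6, 49.4 and 62.2 CPM (log2 fold change 2.28, SE 0.17, adjusted p = 3.96e-06), and Selp (log2 fold change 2.24 ± 0.29) rose. Vegfa fell, from 213 and 209 CPM to 111, 92.7 and 97.5 CPM (log2 fold change -1.07, SE 0.12, adjusted p = 5.35e-05). Angpt2 rose (log2 fold change 2.62 ± 0.26).

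Of 28 genes of growth factors and receptors for hepatocytes 17 rose and 6 fell. Hgf, made by stellate and endothelial cells, stood at 8.06 and 7.40 CPM and 24.9, 31.3 and 25.2 CPM (log2 fold change 1.81, SE 0.21, adjusted p = 6.68e-05). The EGF receptor ligands Ereg (log2 fold change 2.99 ± 0.35) and Hbegf (log2 fold change 2.11 ± 0.37) rose, as did Nrg1, at 1.03 and 1.03 CPM and 10.6, 12.7 and 10.8 CPM (log2 fold change 3.46, SE 0.23, adjusted p = 2.58e-06). The receptor Erbb3 fell (log2 fold change -1.13 ± 0.21), and Egfr was not called, at 652 and 369 CPM and 282, 305 and 379 CPM. Hgfac, the activator of pro-HGF made in the liver, fell (log2 fold change -1.57 ± 0.16). Hippo-YAP targets had 22 of 31 higher (13 without NTC-Veh replicate 1). Ccn1 stood at 8.19 and 11.3 CPM and 28.5, 41.1 and 36.3 CPM (log2 fold change 1.85, SE 0.22, adjusted p = 6.98e-05). Ankrd1 stood at 0.163 and 0.333 CPM and 4.88, 2.03 and 3.36 CPM (log2 fold change 3.77, SE 0.53, adjusted p = 0.000190). Myof rose (log2 fold change 3.12 ± 0.28). Of the Wnt and Notch list 8 rose (5 without NTC-Veh replicate 1) and 8 fell of 22. Several feedback genes of β-catenin fell, with Notum at 62.3 and 53.2 CPM and 9.98, 12.5 and 10.6 CPM (log2 fold change -2.39, SE 0.19, adjusted p = 8.23e-06) and Sp5 (log2 fold change -3.90 ± 0.43), and the Notch genes Hes1 (log2 fold change 0.98 ± 0.15), Jag1 (log2 fold change 1.02 ± 0.17) and Heyl (log2 fold change 1.22 ± 0.23) rose.

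Bile duct and fetal markers changed selectively. Of the defining duct genes, Krt19, at 0.517 and 2.38 CPM and 1.32, 1.33 and 2.97 CPM, and Krt7 were not called. Spp1 stood at 38.7 and 43.6 CPM and 180.3, 234 and 181 CPM (log2 fold change 2.27, SE 0.17, adjusted p = 4.71e-06). Prom1 stood at 1.39 and 2.55 CPM and 30.3, 14.9 and 35.5 CPM (log2 fold change 3.77, SE 0.83, adjusted p = 0.00595). With Sox9, 11 of 25 genes of the list were higher, with a summed level of 245 to 319 CPM in vehicle and 541 to 558 CPM after CCl4. Afp, the fetal albumin, stood at 1.72 and 1.16 CPM and 7.70, 18.1 and 9.11 CPM (log2 fold change 3.02, SE 0.44, adjusted p = 0.000389). Akr1c18 stood at 0.354 and 0.166 CPM and 9.17, 17.9 and 18.4 CPM (log2 fold change 5.84, SE 0.43, adjusted p = 4.96e-06). H19, an imprinted gene of the fetal liver, fell (log2 fold change -3.66 ± 0.58).

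Genes of the cytoskeleton mostly rose, 27 of 32 higher (median 2.01), and the list took 0.177% of counts in vehicle and 0.807% after CCl4. Actb stood at 542 and 366 CPM and 1584, 1666 and 1696 CPM (log2 fold change 1.86, SE 0.17, adjusted p = 1.27e-05). Tubb6 stood at 6.10 and 6.48 CPM and 116, 94.7 and 114 CPM (log2 fold change 4.10, SE 0.25, adjusted p = 2.41e-06). Vim, vimentin, stood at 17.2 and 26.0 CPM and 142, 175 and 173 CPM (log2 fold change 2.92, SE 0.31, adjusted p = 5.05e-05). Actb, often used as a reference for normalization, was higher in every CCl4 liver. Of 8 other reference genes 2 rose, such as Ywhaz (log2 fold change 0.69 ± 0.09), 3 fell and 3 were not called, among them Hprt (log2 fold change 0.29 ± 0.12) and Ppia (log2 fold change 0.20 ± 0.10). Among annexins and S100 proteins 14 of 21 rose, with Anxa2 at 10.1 and 10.97 CPM and 152, 169.6 and 197 CPM (log2 fold change 4.04, SE 0.18, adjusted p = 6.64e-07) and S100a11 (log2 fold change 3.28 ± 0.17), while S100a1 (log2 fold change -1.38 ± 0.12) and S100a13 (log2 fold change -1.26 ± 0.14) fell. The epithelial genes Cd44 (log2 fold change 2.96 ± 0.21) and Itga6 (log2 fold change 3.63 ± 0.23) rose, and the hepatocyte gap junction gene Gjb1 fell (log2 fold change -0.89 ± 0.13).

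General machinery moved by small amounts. Of 24 ribosome biogenesis genes 19 rose (median 0.48), with Nop56 at 25.1 and 23.7 CPM and 52.5, 52.5 and 50.9 CPM (log2 fold change 1.09, SE 0.09, adjusted p = 7.74e-06) as one of 3 beyond 1. Cytosolic ribosomal proteins had 27 of 81 higher (77 with library size alone, 17 without NTC-CCl4 replicate 1, 12 without NTC-CCl4 replicate 2, 14 without NTC-Veh replicate 1 and 3 without NTC-Veh replicate 2), with a median of 0.24. Splicing genes had 17 of 38 higher (33 with library size alone and 10 without NTC-Veh replicate 2) and 5 lower (2 with library size alone), and of the cold-inducible genes Rbm3 rose (log2 fold change 0.94 ± 0.14) and Cirbp fell (log2 fold change -1.10 ± 0.15). Of 32 proteasome subunits 11 fell (0 with library size alone, 5 without NTC-CCl4 replicate 3 and 3 without NTC-Veh replicate 1) and 2 rose, and with library size alone 21 were higher. Bap1, the gene targeted in the other livers, was not called, at 34.8 and 34.8 CPM and 30.1, 31.5 and 29.5 CPM (log2 fold change -0.20, SE 0.11, adjusted p = 0.144), and the Polycomb list was near the share of all genes, 11 of 39 higher (24 with library size alone and 7 without NTC-Veh replicate 2), among them Ezh2, which rises in dividing cells (log2 fold change 1.33 ± 0.18).

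Some genes were close to undetected in one group. Called genes with a mean of at most 3 counts over the vehicle livers numbered 355, and those with such a mean over the CCl4 livers 98. Inava, at 0 in vehicle, stood at 6.01, 3.81 and 5.60 CPM after CCl4, at least 61.8-fold higher. Ttk, a mitotic kinase, stood at 9.72, 4.81 and 8.07 CPM against 0.0817 and 0 CPM (adjusted p = 5.44e-06), and Fosl1, a partner of Jun, at 2.79, 7.98 and 6.71 CPM against 0.0545 and 0 CPM (adjusted p = 8.39e-05). In the other direction Elovl3, which elongates fatty acids, went from 3.87 and 2.19 CPM to 0.0213, 0.0751 and 0 CPM (adjusted p = 0.0180), and Sult3a2, a relative of Sult3a1, from 7.84 and 2.60 CPM to 0.0426, 0.0751 and 0.0260 CPM (adjusted p = 0.000194). Car1, carbonic anhydrase 1, went from 2.80 and 3.38 CPM to 0, 0.0751 and 0.0260 CPM (adjusted p = 1.34e-06). In all 3 genes NTC-CCl4 replicate 2 was the highest CCl4 liver, a little above the floor of that library. Outside the lists, abundant transcripts that fell by large amounts were Rgs16, a regulator of G protein signalling, from 377 and 272 CPM to 5.63, 7.10 and 4.19 CPM (log2 fold change -5.84, SE 0.61, adjusted p = 0.000120), Upp2 (log2 fold change -5.28 ± 0.50) and the carboxylesterase Ces3b (log2 fold change -5.15 ± 0.42).

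The same treatment was compared in the sgBap1 livers, which share no mouse with the NTC livers, and whose hepatocytes carried a guide against Bap1. Of the 9178 genes called in NTC livers, 8995 (98.0%) had the same sign there, 7793 (84.9%) were called in the same direction and 21 in the opposite one. In the sgBap1 livers 57.0% of all tested genes were called. Across all tested genes the log2 fold changes of both comparisons had a Pearson correlation of 0.832 and a Spearman correlation of 0.861, with genes as points, which are not independent. Of the called genes with an absolute log2 fold change over 2, 1833 of 1847 kept their sign. Cyp2e1 changed by -5.71 in NTC and -6.08 in sgBap1 livers, Ccnb1 by 6.87 and 5.86, Gpnmb by 8.14 and 8.52, and Col1a1 by 4.36 and 4.60 log2 units. The share of called genes with the same sign differed between lists. It was 66 of 66 for mitosis and 37 of 39 for recruited monocytes and macrophages. It was 5 of 14 for MHC class II, 4 of 8 for B and plasma cells and 9 of 12 for MHC class I. Interferon-stimulated genes had 26 of 35 and Kupffer cell markers 11 of 15. The smallest adjusted p of a difference between the responses, by the interaction term of the same edgeR fit, was 0.0694. The interaction was fitted here with edgeR alone, whereas the authors reported genes with a significant interaction from DESeq2 on this series. The lack of calls here does not show that the responses were equal.

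**Figure D5:**
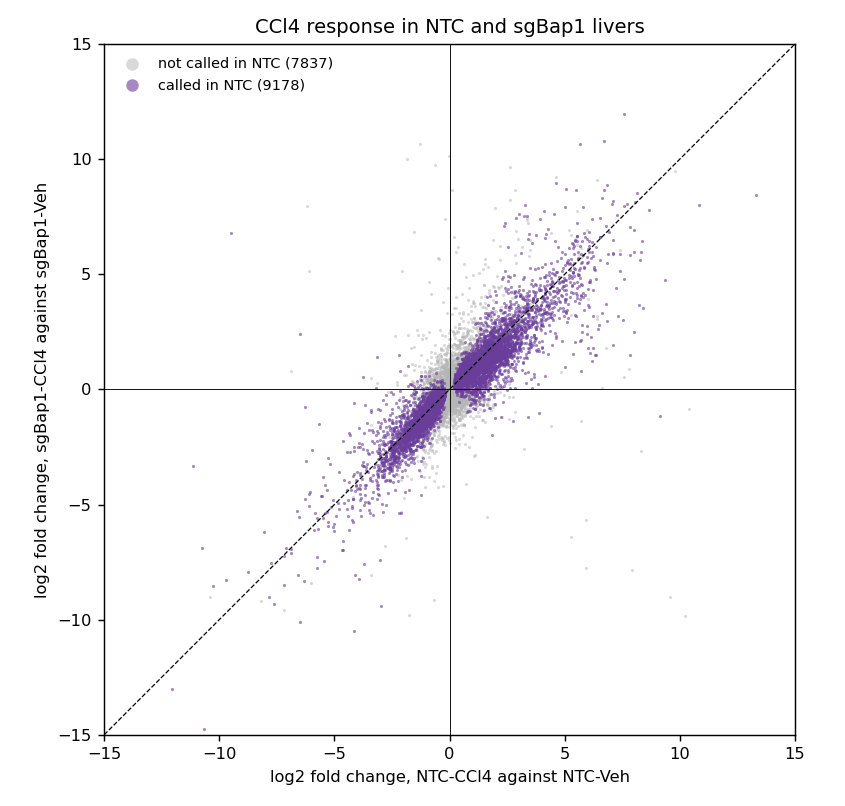
Each point is 1 tested gene, with the log2 fold change under CCl4 in NTC livers on the x axis and in sgBap1 livers on the y axis, purple where called in NTC livers and grey where not, and the dashed line marks equal change. Called genes lie mainly in the upper right and lower left quadrants, and 98.0% of them have the same sign.

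Reads cannot be assigned with certainty among near-identical genes, and of the genes named here Rhbg, Ass1, Gstp1, Ugt1a1, Bhmt, Cyp4a10, Pkm, Ccnb1, Hsp90aa1, Itgam, S100a11, Krt8, Cycs, Hba-a1, Hbb-bs, Cyp2a4, Cyp2c69, Gsta1, Gstp2, Phgdh, Mup22 and Ces3b share more than 20% of their 50-base stretches with other genes. The library kit keeps the strand, but the strand setting of the counting is not given in the sources used here. Exons of 74 of the 329 named genes overlap exons of a gene on the opposite strand, for Apoa4, Ccnd1, Fosl1, Inava, Masp2, Notum, Nr1i3, Pklr, Rbl2, Serpinc1 and Ugt1a1 over more than 20% of their exon bases, and reads of such pairs cannot be told apart.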

How the data were processed

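Poly(A) RNA of the right liver lobe was sequenced from 10 livers with a stranded mRNA kit. The authors aligned reads to GRCm38 with STAR 2.7.6a and quantified genes with Salmon 1.4.0, and the deposited table holds their estimated counts, not normalized, for 55291 genes, of which 9.22% of values were not whole. The strand setting of Salmon is not given in the sources used here. Counts were rounded and fitted with edgeR 4.0.16 (R 4.3.3; filterByExpr, TMM, quasi-likelihood test with robust dispersion) as 1 model of 4 groups over all 10 livers, and NTC-CCl4 was contrasted with NTC-Veh, with Benjamini-Hochberg adjustment over 17015 tested genes. Each SE was taken as the absolute log2 fold change over the root of the F statistic. The scripts were tested on simulated data in which few genes changed, so the scaling was not checked for changes as broad as these. Alternatives used DESeq2 1.42.0, limma 3.58.1, other filters and scalings, a replicate block and each library left out. The studied samples and the 69 gene lists were chosen with earlier results of these data known, so counts over lists are descriptions without a test of their own. Named genes were taken from those marked as defining in a list, whatever their value, up to 4 called genes without overlap in each direction of a list with a mean of at least 100 counts, the 12 with the largest log2 fold change in each direction at a mean of at least 500 counts, the 12 with the largest change of mean CPM in each direction, and up to 10 called genes in each direction with 1 group at a mean of at most 3 counts, and a few of these genes are not reported here. Gene positions are from GENCODE vM21, matched by symbol for 53180 genes, whereas the authors used a later release. Promoters are RefSeq sequences (GRCm38.p6), matched for 1585 of 2082 list genes, and 12 motif families were searched, of which some are reported here. Floors cover counting error only, whereas each SE also holds the spread between the libraries.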

Additional observations from a re-analysis of the deposited data

How the results depend on the processing

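The count of called genes, 9178, stayed within 1.5 times under every alternative run: 8974 in DESeq2's Wald test, 9189 with DESeq2's size factors, 9151 in edgeR's earlier quasi-likelihood method, 9013 in limma-voom, 8947 with a filter at a mean of 10 counts, 8605 with no filter beyond 1 count, 9067 from the 5 NTC livers alone, and 7212 to 8650 with 1 library left out, where a lone vehicle library was assumed to vary like the other groups. Library size alone gave 10561 calls, 8500 higher and 2061 lower, and a test against an absolute log2 fold change of 1 (edgeR's glmTreat) left 2526 of the 4534 genes beyond that size. The fit with the replicate number as a block called 8411 genes, and same-numbered libraries did not deviate together, so the numbers were not read as pairs. Library size alone turned the median of a list or moved its count in the direction with more calls by over 1.5 times in 23 of the 69 gene lists, and leaving out a library did so in 15. With the smaller direction included, where a move of at least 3 genes was required, these were 35 and 18 lists. Of the 329 named genes, 6 lost their call and 16 gained one with library size alone, without a change of sign. Such losses and gains were 9 and 1 with no filter beyond 1 count and 6 and 4 from the 5 NTC livers alone. They were 6 and 3 with the replicate block, 3 and 1 in limma-voom and 1 and 9 in DESeq2's Wald test. All named genes whose log2 fold change changed sign are genes that were not called. With library size alone the sign changed for Apob (0.22), Bap1 (0.28), Clec4f (0.24), Cycs (0.43), Hnf4a (0.22), Hsd17b13 (0.25), Mertk (0.24), Nfe2l2 (0.28), Scd1 (0.47) and Stab2 (0.31). In limma-voom the sign changed for Scd1 (0.001) and Upk3b (0.73). Leaving out 1 library at a time, the ranges that crossed 0 were those of Atf4 (-0.008 to 0.181), Clec4f (-0.489 to 0.039), Cycs (-0.088 to 0.004), Krt19 (-0.377 to 1.824), Scd1 (-0.257 to 0.289), Trac (-0.144 to 2.272) and Upk3b (-1.733 to 3.852). With 2 vehicle livers, calls near the threshold rest on few degrees of freedom, and genes under about 3 counts in a group have poorly determined fold changes.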
